A study of Mus musculus with 18 samples.

Results

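The 4 mature miRNAs come from 3 hairpins between the imprinted genes Meg3 and Rtl1 and were measured in mouse knee cartilage, with and without a torn anterior cruciate ligament (ACL): mmu-miR-673-5p, mmu-miR-673-3p, mmu-miR-493-3p and mmu-miR-337-5p. They are 4 of the 1412 mature miRNAs in the deposited count table. They were chosen by their position and by measured values of this series, the day 7 injured libraries included, so every comparison with those libraries is given as a description, without a test. The 18 small RNA libraries came from femoral condyle cartilage of wild-type C57bl6 mice, which the study's methods give as males of 12 weeks. Injured knees were right knees that received a load of 12 N and were collected at day 1 (n = 3) or day 7 (n = 3). Contralateral knees were the unloaded left knees of the same mice, again 3 libraries at each time. Mice without any load, called naïve and labelled as day 7, were the further control (n = 6). Each library is a pool, for which the labels give 4 mice. The methods name 6 injured mice at day 1 and 12 at day 7. At day 1, 3 separate pools of 4 could therefore not have been formed. The study's design scheme states that pools of 4 were used because some cartilage was lost by day 7. The study also names 6 naïve mice whose left and right knees were pooled apart, so naïve libraries can share mice. Separate pools of 4 could not have filled the 6 naïve libraries either. The size of the day 1 and naïve pools is thus uncertain, and day 7 pools may differ from them in size. Which libraries came from 1 pool is not in the labels.

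Meg3 is a long non-coding RNA transcribed from the maternal copy of an imprinted region, and Rtl1 is a retrotransposon-derived coding gene expressed from the paternal copy. The hairpins downstream of Meg3 lie on the Meg3 strand, in a region where non-coding transcripts and miRNAs are produced from the maternal chromosome. A hairpin is cut into a pair of arms, named 5p and 3p, of which usually a single one is loaded into Argonaute and accumulates. A mature miRNA recognises target transcripts mainly through its seed, the bases just after the first one.

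The mature sequences are shown because they show that no member can be read as a close copy of another. RefSeq sequences (GRCm38.p6) were found for all 4, and the capitals mark the seed, bases 2 to 8.
mmu-miR-673-5p: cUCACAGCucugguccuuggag
mmu-miR-673-3p: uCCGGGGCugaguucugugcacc
mmu-miR-493-3p: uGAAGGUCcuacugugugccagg
mmu-miR-337-5p: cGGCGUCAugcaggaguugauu
The 4 seeds all differ. RefSeq held a sequence for 1184 of the 1412 names of the table. Among these, the seed of mmu-miR-673-5p occurs in 1 other mature miRNA, mmu-miR-6985-3p, and the other 3 seeds occur in none. The nearest other mature miRNA of RefSeq differed from miR-673-5p by 6 bases and from each of the other 3 by 7 bases. All 4 sequences are 22 or 23 bases long. Read counts of different miRNAs can also differ through the ligation and amplification of their sequences, which was not tested, so levels set side by side are levels of reads.

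The hairpins are shown to place both arms, which are in capitals. All 3 lie on the plus strand of chromosome 12 (GRCm38.p6), outside the annotated exons and introns of Meg3 and Rtl1.
Mir673, chr12:109571990-109572080: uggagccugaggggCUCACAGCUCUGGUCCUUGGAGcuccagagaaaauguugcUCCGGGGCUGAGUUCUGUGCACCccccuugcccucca
Mir493, chr12:109580233-109580315: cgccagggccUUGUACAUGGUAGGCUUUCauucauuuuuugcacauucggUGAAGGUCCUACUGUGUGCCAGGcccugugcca
Mir337, chr12:109585789-109585885: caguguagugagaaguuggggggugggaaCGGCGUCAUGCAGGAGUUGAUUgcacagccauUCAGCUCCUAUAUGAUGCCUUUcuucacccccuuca
Mir673 begins 264 bases after the annotated end of Meg3 (109541001 to 109571726). Mir493 follows after a gap of 8152 bases and Mir337 after a further 5473 bases, and Mir337 ends 3308 bases before Rtl1 (109589193 to 109600330, minus strand). A hairpin on the other strand, Mir3544, overlaps Mir337, and its 3p arm covers 17 bases of the miR-337-5p site. That arm, mmu-miR-3544-3p, had 4 reads in all libraries together.

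Total counts ran from 758388 to 4088852 per library, and 604 to 859 miRNAs were detected in a library. Normalised abundance is given in CPM, the count scaled to a common library size, by TMM, and 428 miRNAs passed the filter on low counts. All 4 members passed it. Cartilage markers (miR-140 and miR-455, 4 of 4 arms found) held 0.507% to 1.116% of the counts of a library, and skeletal muscle miRNAs (9 of 9 found) held 6.91% to 25.8%.

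miR-337-5p was by far the most abundant of the 4 and carried 8208 of their 8846 reads. Its mean over the 18 libraries was 234 CPM, against 7.67 CPM for miR-673-5p, 7.07 CPM for miR-673-3p and 3.41 CPM for miR-493-3p. The last 3 ranked 347, 357 and 413 among the 428 tested miRNAs. A library held 129 to 1639 reads of miR-337-5p, but only 4 to 42 of miR-673-5p, 5 to 26 of miR-673-3p and 2 to 32 of miR-493-3p. The spread between libraries of a group therefore has a different make-up. For miR-337-5p the within-group SD of log2 CPM was 0.41 where read counting alone gives 0.079. For miR-493-3p the SD was 0.58 where counting alone gives 0.69, and for the miR-673 arms it was 0.75 (5p) and 0.57 (3p) where counting gives 0.44 for each. miR-493-3p passed the filter only through the day 7 injured libraries. The filter asks for 4.83 CPM, counted on library totals without TMM scaling. All 3 day 7 injured libraries reached that level, and 1 of the other 15 did.

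The hairpins differed in the use of their arms. Mir673 gave nearly equal reads on both sides, with 52.1% on the 5p arm over all libraries. Mir493 gave 91.7% on the 3p arm, and Mir337 gave 99.4% on the 5p arm. The arm balance of miR-673, as log2 CPM of 5p minus 3p, averaged 0.19 ± 0.67 (SD, n = 6) over naïve libraries. Over day 7 injured libraries it was 0.34 ± 0.50 (SD, n = 3), a difference within the spread. The lowest mean was -0.75 ± 0.65 (SD, n = 3) in day 1 contralateral libraries, where 60 reads fell on the 3p arm and 38 on the 5p arm.

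**Figure D1:**
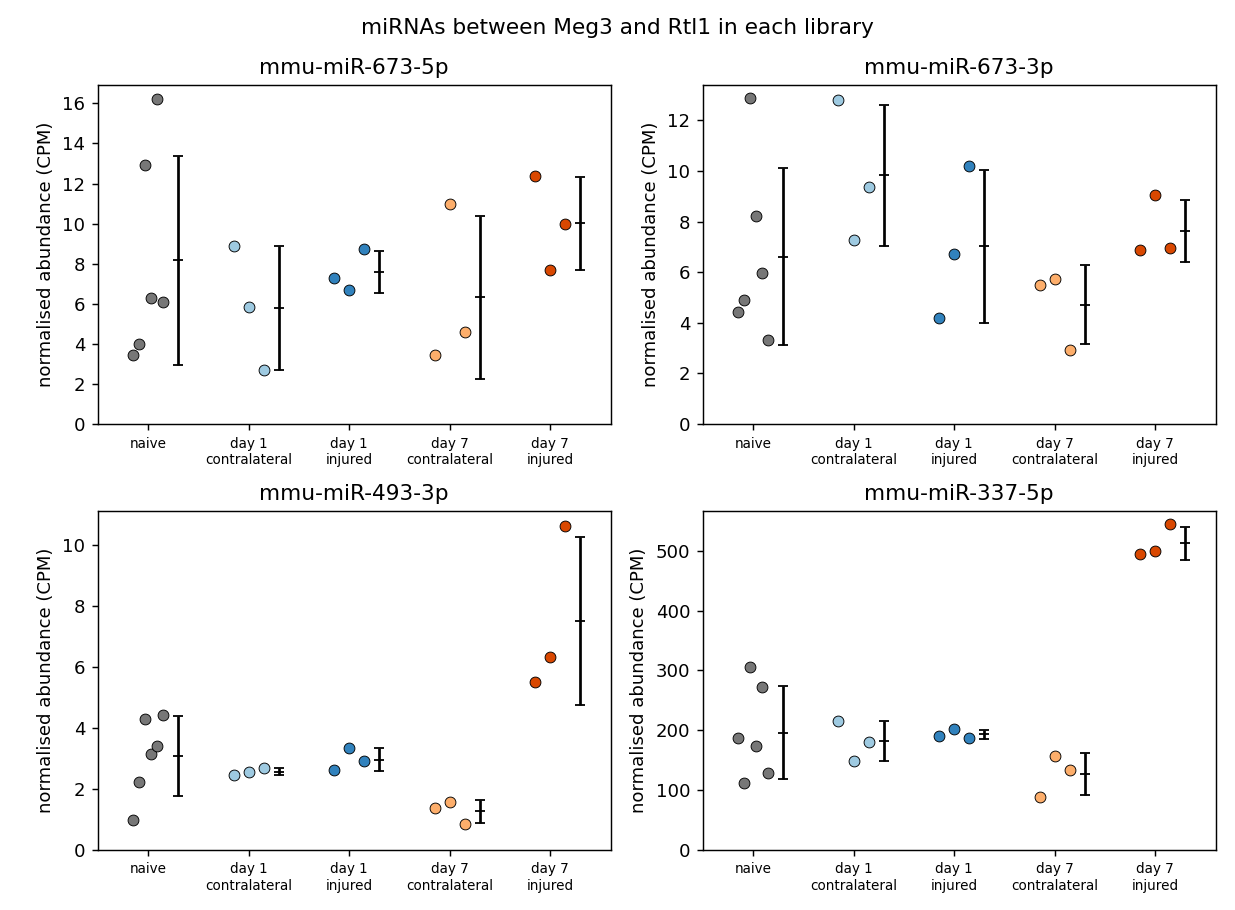
Normalised abundance (CPM, vertical axes starting at 0) of the 4 miRNAs in each of the 18 libraries by group, with points for libraries and bars for mean ± SD. The 3 day 7 injured libraries lie above all others for miR-337-5p and miR-493-3p, and among the others for both arms of miR-673.

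Injured cartilage at day 7 held more miR-337-5p than any other library of the series. The 3 day 7 injured libraries had 494.6, 499 and 544.3 CPM. The 6 naïve libraries ran from 111 to 305 CPM with a median of 180, and the day 7 contralateral libraries had 88.6, 158 and 133 CPM. The day 1 contralateral libraries had 216, 149 and 180 CPM, and the day 1 injured libraries had 190, 202 and 187 CPM. By mean, day 7 injured (513 ± 27.5 CPM, SD, n = 3) came first, followed by naïve (196 ± 77.6, n = 6), day 1 injured (193 ± 7.93, n = 3), day 1 contralateral (182 ± 33.3, n = 3) and day 7 contralateral (126 ± 34.9, n = 3). Only the step from day 7 injured to naïve separated libraries without overlap, and the neighbours below it overlapped. In bulk cartilage, more cells that carry a miRNA and more of it per cell cannot be told apart.

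miR-493-3p was likewise highest in injured knees at day 7, at a far lower level. The day 7 injured libraries had 5.495, 6.34 and 10.6 CPM, from 4, 14 and 32 reads. The naïve libraries ran from 0.985 to 4.43 CPM with a median of 3.29, and the day 7 contralateral libraries had 1.37, 1.57 and 0.832 CPM from 2, 6 and 2 reads. The day 1 libraries sat between these, at 2.47, 2.55 and 2.68 CPM (contralateral) and 2.61, 3.35 and 2.92 CPM (injured). The day 7 injured libraries were above all of the others and the day 7 contralateral libraries were below all day 1 libraries. By mean, day 7 injured (7.49 ± 2.75 CPM, SD, n = 3) was followed by naïve (3.08 ± 1.31, n = 6), day 1 injured (2.96 ± 0.372, n = 3), day 1 contralateral (2.56 ± 0.108, n = 3) and day 7 contralateral (1.26 ± 0.380, n = 3). The first and the last step of that order separated libraries without overlap, and the steps between did not. Pooled over each group, the rate was 8.41 CPM in day 7 injured cartilage (exact 95% Poisson interval 6.24 to 11.1, 50 reads) and 2.96 CPM in naïve cartilage (2.01 to 4.20, 31 reads). These intervals cover counting error only, since PCR copies are not independent molecules.

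In the day 7 injured libraries both arms of miR-673 lay within the range of the naïve libraries. For miR-673-5p the day 7 injured libraries had 12.4, 7.69 and 9.96 CPM, and the naïve libraries ran from 3.45 to 16.2 CPM with a median of 6.20. The day 7 contralateral libraries had 3.43, 10.96 and 4.58 CPM, the day 1 injured libraries had 7.31, 6.70 and 8.75 CPM, and the day 1 contralateral libraries had 8.88, 5.82 and 2.68 CPM. The group means ran from 5.79 ± 3.10 CPM (SD, n = 3, day 1 contralateral) to 10.01 ± 2.34 CPM (SD, n = 3, day 7 injured), and each neighbouring pair of groups in that order overlapped.

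For miR-673-3p the day 7 injured libraries had 6.87, 9.05 and 6.97 CPM, and the naïve libraries ran from 3.32 to 12.9 CPM with a median of 5.43. The day 7 contralateral libraries had 5.49, 5.74 and 2.91 CPM, the day 1 injured libraries had 4.18, 6.70 and 10.2 CPM, and the day 1 contralateral libraries had 12.8, 7.28 and 9.38 CPM. Here the highest mean was not that of the injured knees at day 7 (7.63 ± 1.23 CPM, SD, n = 3) but that of the contralateral knees at day 1 (9.83 ± 2.80 CPM, SD, n = 3). The lowest was that of the contralateral knees at day 7 (4.71 ± 1.57 CPM, SD, n = 3), below naïve (6.62 ± 3.49, n = 6) and day 1 injured (7.03 ± 3.03, n = 3). Each neighbouring pair of groups in this order overlapped.

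In the fit across all 428 miRNAs (limma-voom), day 7 injured versus naïve cartilage gave a log2 fold change of 1.48 ± 0.28 (SE) for miR-337-5p, a 2.80-fold higher level. It was 1.43 ± 0.38 for miR-493-3p, 0.51 ± 0.45 for miR-673-5p and 0.37 ± 0.40 for miR-673-3p. The last 2 values are close to their SE. Of the 4 members, 2 were higher without overlap between the groups, miR-337-5p and miR-493-3p, where 15.4% of all tested miRNAs were. Since these values had a part in the choice of the members, nothing is read from that count.

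Day 7 injured versus day 7 contralateral knees gave wider differences. For miR-337-5p the log2 fold change was 2.05 ± 0.33 (SE) and for miR-493-3p 2.46 ± 0.48, which are 4.15-fold and 5.499-fold. It was 0.74 ± 0.46 for miR-673-3p and 0.59 ± 0.52 for miR-673-5p. Libraries did not overlap for 3 members, miR-673-3p being the third, against 17.5% of all tested miRNAs. The value of miR-673-5p turned on 1 library. Leaving out day 7 contralateral replicate 2, the library highest in miR-673-5p of its group, moved the log2 fold change of that arm from 0.59 to 1.21.

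Day 7 injured versus day 1 injured knees gave log2 fold changes of 1.41 ± 0.32 (SE) for miR-337-5p and 1.33 ± 0.46 for miR-493-3p, with 0.29 ± 0.52 for miR-673-5p and 0.20 ± 0.46 for miR-673-3p. Again 2 members did not overlap, miR-337-5p and miR-493-3p, against 18.7% of all tested miRNAs. The value of miR-673-3p was -0.01 without day 1 injured replicate 1 and 0.67 without day 1 injured replicate 3. The 3 comparisons share the day 7 injured libraries, so they are not independent views of these miRNAs.

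**Figure D2:**
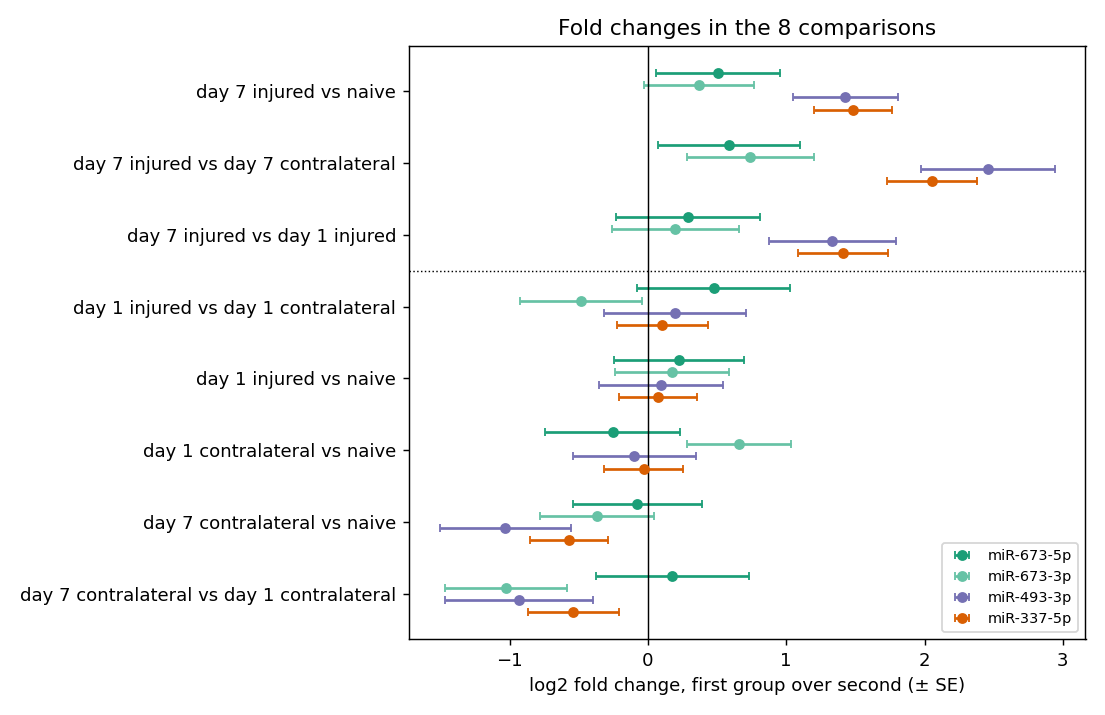
Log2 fold change ± SE (limma-voom) of the 4 miRNAs in each of the 8 comparisons, first group over second. Above the dotted line are the 3 comparisons with day 7 injured libraries, given without a test, where miR-337-5p and miR-493-3p lie between 1.33 and 2.46 and both miR-673 arms lie between 0.20 and 0.74, and below it the 5 tested comparisons, in which no value passed the threshold.

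Erythroid miRNAs (miR-451a, miR-144 and miR-486, 7 of 7 arms found) moved in the same libraries. They held 0.480% to 0.675% of the counts in day 7 injured libraries and 0.890% to 2.33% in the other 15, with no overlap. Taken singly, 4 of the 7 arms were lower than in naïve libraries without overlap, against 37 of all 428 tested miRNAs. The highest log2 fold change among the 7 was -0.01 against naïve cartilage and 0.19 against day 1 injured knees. Muscle miRNAs held 6.91% to 12.9% in day 7 injured, 9.15% to 18.3% in naïve and 12.8% to 25.8% in day 7 contralateral libraries, and 6.95% to 19.6% over both day 1 groups, with 1 of the 9 arms at 0 in each of the first 3 groups. Leukocyte miRNAs (6 of 6 found) held 0.755% to 0.941% in day 7 injured and 0.817% to 1.15% in naïve libraries. Vascular miRNAs (6 of 6 found) held 7.03% to 7.99% and 6.13% to 8.28%, and cartilage miRNAs 0.648% to 0.942% and 0.586% to 1.116%. In day 7 contralateral libraries leukocyte miRNAs held 0.836% to 1.73%, vascular miRNAs 6.96% to 10.1% and cartilage miRNAs 0.519% to 0.974%. The part of these shares in the results was not tested. With muscle and erythroid miRNAs left out of the library sizes, the log2 fold changes between day 7 injured and naïve cartilage were 1.49 for miR-337-5p, 1.43 for miR-493-3p, 0.52 for miR-673-5p and 0.38 for miR-673-3p.

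The balance between miR-673 and the other hairpins was then taken within each library, as the mean log2 CPM of the 2 miR-673 arms minus the mean of miR-493-3p and miR-337-5p. This ratio is below 0 throughout because miR-337-5p is abundant. It was -2.47, -2.70 and -3.09 in the day 7 injured libraries. The naïve libraries ran from -2.26 to -1.54 with a median of -1.76, and the day 7 contralateral libraries had -1.44, -1.17 and -1.75. Day 1 injured libraries had -1.999, -1.95 and -1.38, and day 1 contralateral libraries had -1.23, -1.62 and -2.06. All 3 day 7 injured libraries were thus below each of the other 15. The difference of the means was -0.93 from naïve, -1.30 from day 7 contralateral and -0.98 from day 1 injured libraries. Across the alternatives run for it, the first of these differences lay between -1.12 and -0.73.

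In the comparisons without day 7 injured libraries the ratio could be tested, with exact two-sided permutation tests adjusted over the 5. These tests treat libraries as independent, although naïve libraries can share mice and injured and contralateral knees came from the same mice. Their p-values hold only under that condition. Day 7 contralateral libraries were 0.37 above naïve (exact p = 0.0952, adjusted p = 0.476, 84 arrangements). Day 1 contralateral libraries were 0.19 above naïve (exact permutation p = 0.405, adjusted 0.798). Day 1 injured libraries were 0.05 above naïve and 0.14 below day 1 contralateral ones (a difference of -0.14), with exact permutation p = 0.798 and 0.70, both 0.798 once adjusted. Day 7 contralateral libraries were 0.18 above day 1 contralateral ones (exact permutation p = 0.60, adjusted 0.798). With 3 libraries against 3 the smallest p is 0.1, so neither of the 2 comparisons of that size could pass the threshold.

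**Figure D3:**
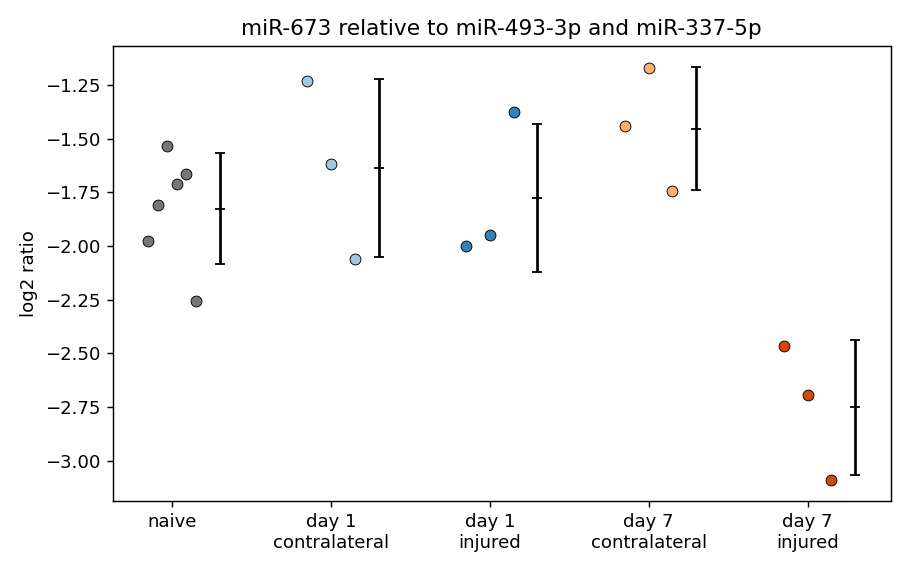
Log2 ratio of miR-673 (mean log2 CPM of both arms) to miR-493-3p and miR-337-5p (mean of the 2) in each library by group, with bars for mean ± SD. The day 7 injured libraries lie between -3.09 and -2.47, and the other 15 lie between -2.26 and -1.17.

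At day 1 no difference was detectable in any member. Between day 1 injured and day 1 contralateral knees, limma-voom with Benjamini-Hochberg adjustment called 0 of the 4 members and 0% of all tested miRNAs. For miR-337-5p the log2 fold change was 0.10 ± 0.33 (SE), with a 95% interval from -0.58 to 0.79. It was 0.19 ± 0.51 for miR-493-3p, 0.48 ± 0.55 for miR-673-5p and -0.48 ± 0.44 for miR-673-3p. The arms of miR-673 thus pointed to opposite sides, each within about 1 SE of 0. Of all tested miRNAs, 8 had an unadjusted p under 0.05, and edgeR and DESeq2 also called 0, with 11 and 9 at that level.

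Against naïve cartilage, day 1 injured libraries gave log2 fold changes of 0.07 ± 0.28 (SE) for miR-337-5p, 0.10 ± 0.45 for miR-493-3p, 0.22 ± 0.47 for miR-673-5p and 0.17 ± 0.41 for miR-673-3p. None of the 4 was called (limma-voom adjusted p = 0.992 for each), nor was any tested miRNA (0%). The 95% interval of miR-337-5p ran from -0.52 to 0.67, in a fit that treats the libraries as independent. Unadjusted p was under 0.05 for 8 miRNAs, and for 6 with edgeR and 5 with DESeq2, each of which called 0. These small values changed sign under several alternatives. With library totals in place of TMM, the median of all tested miRNAs went from 0.07 to -0.15 and the value of miR-337-5p went to -0.12, while that of miR-673-5p stayed above 0.

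Day 1 contralateral versus naïve cartilage also had 0 of 4 members and 0% of all miRNAs called by limma-voom (adjusted p = 0.996 for each member). Log2 fold changes were -0.03 ± 0.28 (SE) for miR-337-5p, -0.10 ± 0.45 for miR-493-3p, -0.25 ± 0.49 for miR-673-5p and 0.66 ± 0.38 for miR-673-3p. Here 4 miRNAs had an unadjusted p under 0.05, with 3 for edgeR and 1 for DESeq2, and neither called any.

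The contralateral knees at day 7 were at the low end for 3 of the 4 members. Against naïve cartilage, miR-337-5p had a log2 fold change of -0.57 ± 0.29 (SE) and a limma-voom adjusted p = 0.675. For miR-493-3p it was -1.03 ± 0.47, with the same adjusted p, and it was the 1 member with an unadjusted p under 0.05. The value was -0.37 ± 0.41 for miR-673-3p and -0.08 ± 0.47 for miR-673-5p. None passed the threshold, and 0% of all tested miRNAs did, with 23 at an unadjusted p under 0.05. edgeR called 0 and had 31 at that level, 2 of them members. DESeq2 called 1, which was no member, and had 34 at that level, 1 of them a member. The contralateral and naïve libraries overlapped for all 4 members.

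Against day 1 contralateral knees, day 7 contralateral knees gave log2 fold changes of -1.03 ± 0.44 (SE) for miR-673-3p (limma-voom adjusted p = 0.701), -0.93 ± 0.54 for miR-493-3p, -0.54 ± 0.33 for miR-337-5p and 0.18 ± 0.55 for miR-673-5p. Both miR-673-3p and miR-493-3p were lower in each day 7 library than in each day 1 library, 2 of 4 members where 6.78% of all tested miRNAs were lower without overlap. Neither was called, although miR-673-3p was the 1 member with an unadjusted p under 0.05, and limma-voom called 0% of all miRNAs. Unadjusted p was under 0.05 for 25 miRNAs. edgeR called 0 (23 at that level, 1 of them a member). DESeq2 called 2, neither of them a member (28 at that level, with 0 members).

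The other arms from this stretch were too rare for the fit. The table holds 16 arms from hairpins inside Meg3 or between Meg3 and Rtl1, and the 4 members were the ones that passed the filter. miR-337-5p alone made up 89.8% of their reads. Of the other 12 arms, 8 had 11 reads or fewer over all 18 libraries. These were mmu-miR-493-5p (11 reads), mmu-miR-665-3p and mmu-miR-3544-3p (4 each), mmu-miR-770-5p and mmu-miR-665-5p (2 each), and mmu-miR-1906, mmu-miR-3070-3p and mmu-miR-3070-2-3p (1 each).

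The remaining 4 arms had 46 to 87 reads. miR-770-3p comes from a hairpin inside Meg3, upstream of Mir673. It had 4.12, 9.05 and 5.98 CPM in the day 7 injured libraries and 0.493 to 2.77 CPM in the naïve libraries, without overlap. Pooled, these were 6.89 CPM (exact 95% Poisson interval 4.95 to 9.35, 41 reads) and 1.24 CPM (0.661 to 2.12, 13 reads). In the other 3 groups the pooled rate of miR-770-3p was 1.16 to 1.75 CPM. The hairpin on the other side of Mir673 in the order along the chromosome is Mir493, described above.

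miR-337-3p, the rare arm of Mir337, had a pooled rate of 2.86 CPM (1.66 to 4.58, 17 reads) in day 7 injured and 0.955 CPM (0.458 to 1.76, 10 reads) in naïve libraries. Its day 7 injured libraries, at 2.32 to 3.62 CPM, overlapped with the naïve libraries, at 0 to 2.46 CPM. For miR-540-3p, from the hairpin that follows Mir337, the pooled rates were 4.88 CPM (3.26 to 7.00, 29 reads) and 2.39 CPM (1.54 to 3.52, 25 reads). Its naïve libraries ran from 1.26 to 5.53 CPM and overlapped with those of the injured knees, at 4.07 to 5.65 CPM. The 5p arm of the same hairpin, miR-540-5p, had 1.34 CPM (0.581 to 2.65, 8 reads) and 1.91 CPM (1.17 to 2.95, 20 reads). The values of miR-540-5p in injured knees at day 7, from 1, 1 and 6 reads, lay within the naïve range of 0 to 5.12 CPM. That range starts at 0, so no library could lie below it.

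The imprinted region goes on beyond Rtl1, and 44 tested arms from the rest of it give the setting for the members. In day 7 injured versus naïve cartilage, the 9 tested of 12 arms from hairpins within Rtl1 had a median log2 fold change of 1.23. They ran from 0.46 to 2.09. These hairpins lie antisense to Rtl1, except Mir3071, which lies on the strand of Rtl1 itself. Its arm miR-3071-3p gave the low end of 0.46, and the next lowest, miR-434-3p, had 0.54. The 33 tested of 71 arms of the miR-379 to miR-410 group had a median of 1.85 and ran from 0.37 to 3.32, and the 2 tested arms of Rian had 1.89 and 2.37. The median of all 428 was 0.00. Arms that passed the filter only because they were high in injured knees are among those counted, so these medians are a description.

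Among these arms, miR-337-5p and miR-493-3p lay inside the range and both arms of miR-673 at its lower end. Of the 33 arms of the miR-379 to miR-410 group, 10 had a lower value than miR-337-5p and also 10 than miR-493-3p, but 2 had a lower value than miR-673-5p and 1 than miR-673-3p. Of the 9 arms within Rtl1, 5 were lower than each of the first pair, miR-3071-3p included. That arm was the 1 lower than miR-673-5p, and 0 were lower than miR-673-3p. Low values of single arms in this comparison were not confined to the hairpin next to Meg3. miR-3071-3p, on the strand of Rtl1, and miR-434-3p, antisense to Rtl1, had 0.46 ± 0.57 (SE) and 0.54 ± 0.24. In the distal group, miR-668-3p and miR-329-5p had 0.37 ± 0.38 and 0.37 ± 0.33. These 4 were named after their values had been seen. The other arms of their hairpins, where tested, were higher, with 2.03 for miR-434-5p and 0.95 for miR-329-3p. Against day 7 contralateral knees the values were 0.67 (miR-3071-3p), 0.96 (miR-434-3p), 1.40 (miR-668-3p) and 0.87 (miR-329-5p). In that comparison miR-673-5p had 0.59 and miR-673-3p had 0.74.

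**Figure D4:**
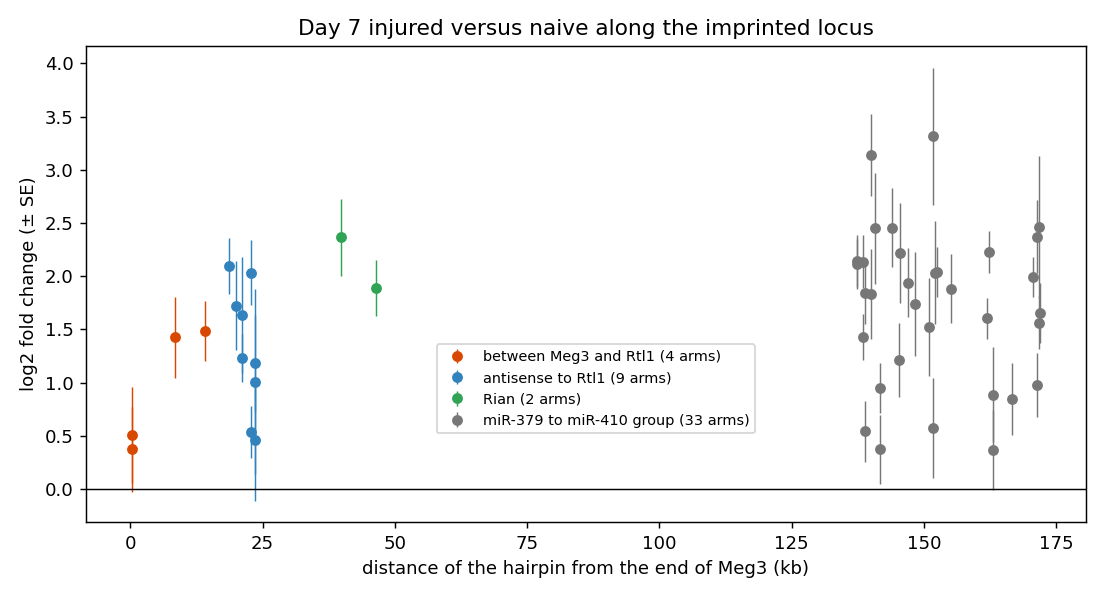
Log2 fold change ± SE (limma-voom) in day 7 injured versus naïve cartilage of the 48 tested arms of the imprinted region, against the distance of the hairpin from the end of Meg3 in kb. The arms of miR-673, nearest to Meg3, lie at 0.37 and 0.51, miR-493-3p and miR-337-5p lie at 1.43 and 1.48, and the other arms run from 0.37 to 3.32. Of the arms labelled antisense to Rtl1 in the legend, miR-3071-3p comes from the strand of Rtl1 itself.

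The miRNAs whose log2 CPM was most like that of a member over the 18 libraries also differed between the hairpins. These correlations are descriptions, since the libraries share their group, depth and scaling. For miR-337-5p the 3 closest were miR-411-3p (Pearson r = 0.93), miR-409-3p (0.93) and miR-541-5p (0.91). For miR-493-3p they were miR-382-5p (0.82), miR-409-3p (0.80) and miR-1193-3p (0.79). Once group means were removed, these values were 0.75, 0.72 and 0.75 for the partners of miR-337-5p and 0.28, 0.36 and 0.53 for those of miR-493-3p. All 6 places were taken by arms of the miR-379 to miR-410 group.

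For miR-673-5p the closest were miR-615-3p (r = 0.80), miR-671-3p (0.73) and miR-668-3p (0.70), of which only the last lies in the imprinted region. For miR-673-3p they were miR-615-3p (0.51), miR-501-3p (0.50) and miR-299a-5p (0.48). Without the group means these were 0.81, 0.80 and 0.71 for miR-673-5p and 0.58, 0.49 and 0.49 for miR-673-3p. miR-615-3p, from the Hoxc cluster, came first for both arms. The median r with the 44 other arms of the imprinted region was 0.74 for miR-337-5p, 0.64 for miR-493-3p, 0.37 for miR-673-5p and 0.21 for miR-673-3p, against medians between -0.05 and 0.02 with all tested miRNAs. These medians were not taken with the group means removed, and they include the day 7 injured libraries used in the choice of the members. Nothing is read from their order.

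Among the members themselves, miR-337-5p and miR-493-3p had r = 0.78 over the 18 libraries but 0.20 once the group means were removed. For miR-337-5p and miR-673-5p the order was the other way round, with 0.63 over the libraries and 0.71 after removal of the group means. Within the naïve group, replicates 3 and 5 were highest in both, with 305 and 272 CPM of miR-337-5p and 12.9 and 16.2 CPM of miR-673-5p. The order was reversed within the day 1 injured group, where the libraries with 187, 190 and 202 CPM of miR-337-5p had 8.75, 7.31 and 6.70 CPM of miR-673-5p. In the day 7 injured group, too, the library lowest in miR-337-5p (494.6 CPM) was the highest in miR-673-5p (12.4 CPM). The 2 arms of miR-673 had r = 0.34 with each other, or 0.43 without the group means. Values for miR-673-5p rest on 4 to 42 reads in a library.

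**Figure D5:**
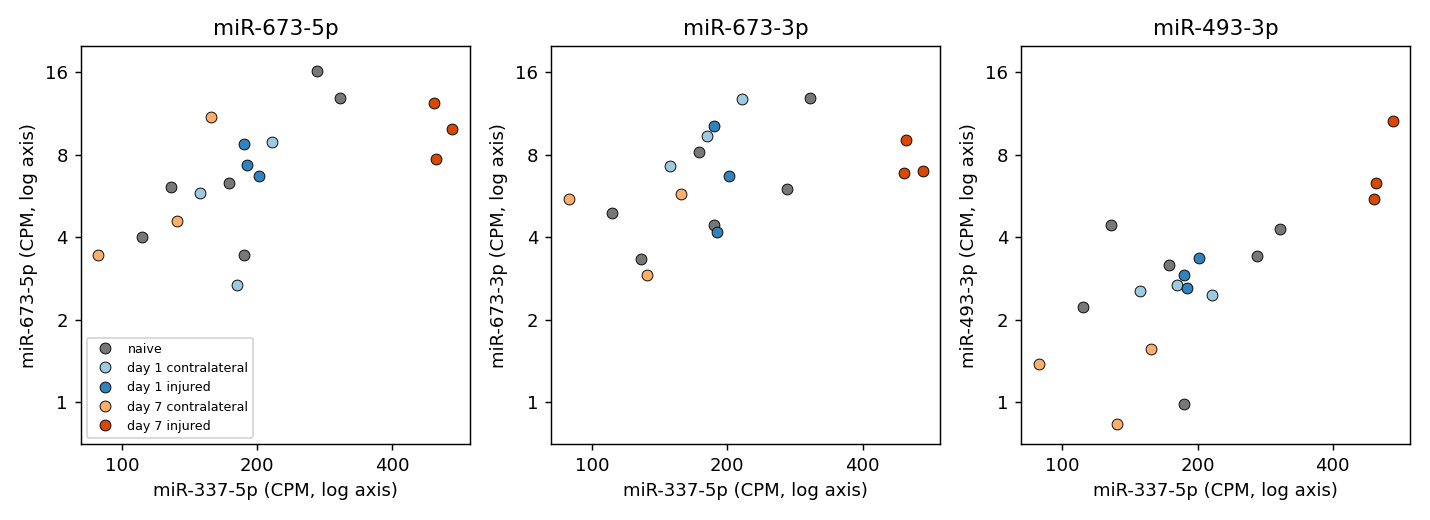
Abundance of miR-673-5p, miR-673-3p and miR-493-3p against that of miR-337-5p (CPM, log axes) in the 18 libraries, coloured by group. The day 7 injured libraries lie apart in miR-337-5p, at 494.6 to 544.3 CPM, with the highest miR-493-3p of the series, from 5.495 to 10.6 CPM, and with miR-673 values that other libraries also reach.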

How the data were processed

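Small RNA was sequenced from 18 cartilage pools. According to the methods, the authors used Trim Galore 0.6.6 to trim adapters, mapped reads to miRBase mature sequences with bowtie 1.3.0 and counted them with SAMtools 1.12 in an nf-core pipeline set to GRCm38. The handling of reads with several matches is not given in the sources used here. The authors deposited raw read counts, without normalisation.

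Groups came from the treatment label, and replicates were numbered in accession order. A table row was assigned to the sample whose title carries its library number. The prefixes of those numbers are unlike in table and titles. The members and lists were chosen with earlier results of these data known.

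Counts were analysed in R 4.3.3 with edgeR 4.0.16 (filterByExpr, minimum count 10, minimum total 15, TMM scaling) and with limma-voom (limma 3.58.1) over all 18 libraries with 1 mean per group. P-values were adjusted by Benjamini-Hochberg over 428 miRNAs, with a threshold of 0.05. Pools are not identified in the labels, so libraries were treated as independent and p-values measure the spread between these samples. A prior count of 2 was used for log2 CPM in ratios and correlations. Exact permutation tests were two-sided. The fit was tested on simulated data. Poisson intervals (95%) cover counting error only, and intervals of log2 fold changes come from the limma-voom fit and cover the spread between libraries. Named miRNAs were the members, every other arm inside Meg3 or between Meg3 and Rtl1, and the 3 tested miRNAs with the highest Pearson r for each member. Exceptions are named as such. Alternatives were DESeq2 1.42.0 size factors or its test, library totals, library sizes without muscle and erythroid miRNAs, other filters, edgeR's quasi-likelihood test, quality weights, only the groups compared, leaving out each library, and other forms of the ratio. Positions came from GENCODE M21 (GRCm38) and sequences from RefSeq.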

Additional observations from a re-analysis of the deposited data

How the results depend on the processing

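No paired analysis was possible because the replicate numbers were given in accession order and shared mice are not identified in the labels. No member was called in any of the 5 tested comparisons under any alternative. The 3 fold changes of each member with day 7 injured libraries kept their sign under every alternative but 1, miR-673-3p against day 1 injured knees, which ran from -0.0083 to 0.67 with 1 library left out. Leaving out a library also reruns the filter, which asks for fewer libraries where the library left out came from a group of 3. With at least 10 counts in every library only miR-337-5p could be fitted, and in the tested comparisons with only the groups compared miR-493-3p could not.

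Small log2 fold changes changed sign, and the cause was not tested. In day 1 injured versus naïve cartilage, library totals gave -0.0068 for miR-673-3p, -0.13 for miR-493-3p and -0.12 for miR-337-5p, edgeR gave -0.029 for miR-673-5p, -0.042 for miR-493-3p and -0.021 for miR-337-5p, DESeq2 gave -0.10, -0.089 and -0.071, and library sizes without muscle and erythroid miRNAs gave -0.017 for miR-337-5p. Quality weights gave 0.0019 for miR-673-5p, 0.021 for miR-493-3p and 0.16 for miR-337-5p in day 1 contralateral versus naïve cartilage, and 0.30 for miR-673-5p in day 7 contralateral versus naïve. Library totals gave -0.013 for miR-337-5p in day 1 injured versus contralateral knees. With 1 library left out, the ranges that crossed 0 were -0.067 to 0.21 there. They were, in day 1 injured versus naïve, -0.027 to 0.37 (miR-673-5p), -0.25 to 0.43 (miR-673-3p), -0.23 to 0.21 (miR-493-3p) and -0.073 to 0.18 (miR-337-5p) and, in day 1 contralateral versus naïve, -0.63 to 0.033 (miR-673-5p) and -0.22 to 0.053 (miR-337-5p). For miR-673-5p they were -0.65 to 0.17 in day 7 contralateral versus naïve and -0.35 to 0.55 in day 7 versus day 1 contralateral knees.

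The ratio difference changed sign with miR-673-5p alone in day 1 injured versus contralateral knees (0.32) and day 1 contralateral versus naïve (-0.28), and with miR-673-3p alone in day 7 versus day 1 contralateral knees (-0.32). With 1 library left out it ran from -0.35 to 0.065, from -0.015 to 0.40 and from -0.029 to 0.39 in these, and from -0.15 to 0.16 in day 1 injured versus naïve. In the comparisons with day 7 injured libraries it kept its sign throughout.

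Depth limits miR-493-3p and both miR-673 arms, with as few as 2 to 5 reads in a library.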
